A study of Mus musculus with 23 samples.

Results

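Retrosplenial cortex (RSC), a midline cortical area that links the hippocampal system with the neocortex and is known for its part in spatial memory and navigation, was set against 3 other cortical subregions of the mouse by its histone marks. The regions described are the RSC-only regions: stretches of the RSC list of a mark, on the autosomes and at least 1000 bp wide, that overlapped by 1 bp or more no region of that mark in anterior cingulate cortex (ACC), lateral entorhinal cortex (LEC) or medial entorhinal cortex (MEC). There were 3200 RSC-only H3K27ac regions among 37411 RSC H3K27ac regions of that width, and 2765 RSC-only H3K4me2 regions among 41187. Together these are 5965 of the 334051 regions listed for all subregions and both marks. The remaining RSC regions, 34211 for H3K27ac and 38422 for H3K4me2, overlapped at least 1 region elsewhere and are called shared.

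The tissue was adult cortex of C57BL6J mice at postnatal day 56, with no treatment named in the labels, and chromatin was immunoprecipitated with an antibody to H3K27ac or to H3K4me2 and sequenced. The labels name 2 libraries for each mark in each subregion, but a single one for H3K4me2 in MEC. RSC, ACC, LEC and MEC were cut from both hemispheres of unstained horizontal or coronal sections of 500 µm by their visible architecture, and frozen. Each piece was whole tissue with no sorting of cells named, and fewer cells of a type and less of a mark per cell cannot be told apart. Neither sex nor whether the libraries came from different animals is given in the labels. Each subregion and mark has 1 list, with no values per library, so no value has a replicate error and nothing was tested across animals. Brackets after a percentage hold its Wilson 95% interval, which covers counting error over regions and nothing about animals. The lists name no genes, so the labelled tissue could not be checked against marker genes, and the regions are given by position only, in mm9, the build named in the submitters' processing notes.

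H3K27ac is an acetylation of a histone tail that marks enhancers and promoters in use, whereas H3K4me2 is a methylation that marks enhancers and promoters both in use and held ready. An enhancer is a stretch of DNA, often far from its gene, that raises the activity of that gene in particular cells. Promoters tend to be active in many tissues, and enhancers tend to differ between them. The authors also gave, for each list, a shorter enhancer list. RSC regions with the same start and end in it are called enhancer regions here, and the others are called excluded regions, since the rule that removed them is not known here.

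The sets were chosen by overlap, so their sizes are a description. RSC-only regions made up 8.55% (8.27 to 8.84) of RSC H3K27ac regions and 6.71% (6.48 to 6.96) of RSC H3K4me2 regions. ACC shared the most with RSC: an ACC region overlapped 80.8% of the RSC H3K27ac regions and 82.7% of the RSC H3K4me2 regions. A LEC region overlapped 70.0% and 74.3%, and a MEC region 45.0% and 48.7%. Among shared H3K27ac regions, 5070 were shared with ACC alone, 1479 with LEC alone and 796 with MEC alone, whereas 12164 were shared with all 3. Among shared H3K4me2 regions the numbers were 4962, 1703, 592 and 15165. The RSC lists held 40399 H3K27ac and 45335 H3K4me2 regions on autosomes, against 46928 and 53038 in ACC, 41019 and 46963 in LEC, and 22229 and 28770 in MEC. The MEC H3K4me2 list also stood apart in width, with 58.2% of its regions at least 1000 bp wide, against 90.9% in RSC. Without the MEC lists the RSC-only share was 10.7% for H3K27ac and 8.15% for H3K4me2, and without the ACC lists it was 22.1% and 18.8%. Without the LEC lists it was 12.5% and 10.8%. When each of the other lists was cut to its widest regions, as many as in the shortest, the share was 27.4% and 24.2%. With a width minimum of 2000 bp it was 4.12% and 1.55%. The sequencing depth behind the lists is unknown, so depth and tissue cannot be told apart in these numbers.

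Both limits of the rule cut through a continuous range. At exactly 1000 bp, 113 of 325 RSC H3K27ac regions overlapped nothing elsewhere, and at 975 bp, just too narrow to be counted, 160 of 418 did. For H3K4me2 it was 173 of 580 regions at 1000 bp and 238 of 654 at 975 bp. Few regions lay close to the overlap limit. Only 10 RSC-only H3K27ac and 6 RSC-only H3K4me2 regions had a region of another subregion less than 100 bp from an edge. Only 6 shared H3K27ac and 3 shared H3K4me2 regions had less than 100 bp in common with the other lists. Of the shared regions, 55.5% of H3K27ac and 58.3% of H3K4me2 were covered in full.

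RSC-only regions were mostly enhancer regions. Of the RSC-only H3K27ac regions, 2727 or 85.2% (83.9 to 86.4) were enhancer regions and 473 were excluded regions, against 18425 or 53.9% (53.3 to 54.4) and 15786 among shared ones. Over all RSC H3K27ac regions of this width 56.5% were enhancer regions. For H3K4me2 it was 2387 or 86.3% (85.0 to 87.6) of RSC-only regions, with 378 excluded, against 22019 or 57.3% (56.8 to 57.8) of shared regions, and 59.3% overall. Read the other way, 12.9% (12.4 to 13.4) of enhancer and 2.91% (2.66 to 3.18) of excluded H3K27ac regions were RSC-only, and 9.78% (9.41 to 10.2) of enhancer and 2.25% (2.04 to 2.49) of excluded H3K4me2 regions. The intervals of the compared sets did not overlap for either mark.

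Pooled over which subregions shared a region, the enhancer share was lower with each further subregion that had the mark. For H3K27ac it was 85.2% in regions shared with no other subregion, 73.4% (72.4 to 74.4) with 1, 57.6% (56.8 to 58.4) with 2 and 37.5% (36.6 to 38.4) with all 3. For H3K4me2 the steps were 86.3%, 80.4% (79.4 to 81.3), 68.1% (67.4 to 68.8) and 34.9% (34.1 to 35.6). Median width rose over the same steps, from 1600 to 3900 bp for H3K27ac and from 1250 to 3425 bp for H3K4me2. Width was not held equal between the steps. Which subregion shared the region also went with the share. For H3K27ac, enhancer regions were 76.8% of those shared with ACC alone, 66.7% with LEC alone and 63.9% with MEC alone. With a pair of subregions they were 62.3% for ACC and LEC, 58.4% for ACC and MEC and 27.4% for LEC and MEC. The last lay below the 37.5% of regions shared with all 3, against the direction of the pooled steps. For H3K4me2 they were 82.9%, 79.8% and 61.0% with ACC, LEC or MEC alone. With a pair they were 77.9% for ACC and LEC, 48.0% for ACC and MEC and 34.5% for LEC and MEC. The last was close to the 34.9% of regions shared with all 3.

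**Figure D1:**
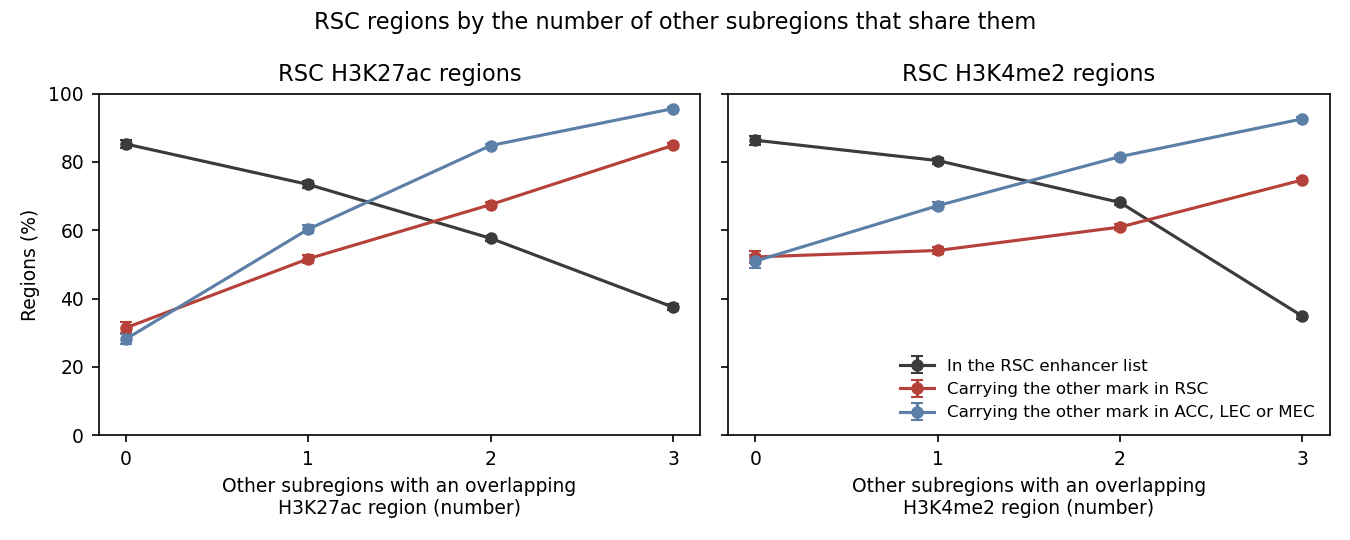
Percentage of RSC regions of 1000 bp or wider (vertical axis) by the number of other subregions with an overlapping region of the same mark (horizontal axis), for H3K27ac on the left and H3K4me2 on the right; black points are regions in the enhancer list, red points carry the other mark in RSC, blue points carry it in ACC, LEC or MEC, and bars are Wilson 95% intervals. The black points fall from 85.2% to 37.5% for H3K27ac and from 86.3% to 34.9% for H3K4me2, while the red points climb from 31.5% to 84.8% and from 52.2% to 74.7%. Median width also rises with the number of subregions and is not held equal here.

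RSC-only regions were also narrow, which the overlap rule partly builds in: each further base of a region is another place where a list can meet it. The median width was 1600 bp for RSC-only against 2650 bp for shared H3K27ac regions, and 1250 bp against 2150 bp for H3K4me2. The middle 50% of RSC-only H3K27ac regions spanned 1200 to 2200 bp, and of RSC-only H3K4me2 regions 1100 to 1575 bp. Regions of 3000 bp or wider were 10.4% (9.40 to 11.5) of RSC-only and 42.5% (42.0 to 43.0) of shared H3K27ac regions. For H3K4me2 they were 51 of the 2765 RSC-only regions, or 1.84% (1.41 to 2.42), against 34.1% (33.6 to 34.6) of shared ones. In all, RSC-only regions covered 5.95 Mb with H3K27ac and 3.99 Mb with H3K4me2, against 132.6 Mb and 116.6 Mb in shared regions.

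Enhancer and excluded regions differed little in width within the RSC-only sets, unlike within the shared ones. RSC-only H3K4me2 enhancer regions had a median of 1250 bp and RSC-only excluded regions 1325 bp, whereas shared enhancer regions had 1675 bp and shared excluded regions 3450 bp. For H3K27ac the medians were 1575 and 1725 bp for RSC-only and 2400 and 2950 bp for shared regions, in the same order. The widest RSC-only regions were 9875 bp for H3K27ac, an enhancer region, and 10075 bp for H3K4me2, an excluded region. The widest shared regions, 125900 bp and 63525 bp, were both excluded regions.

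**Figure D2:**
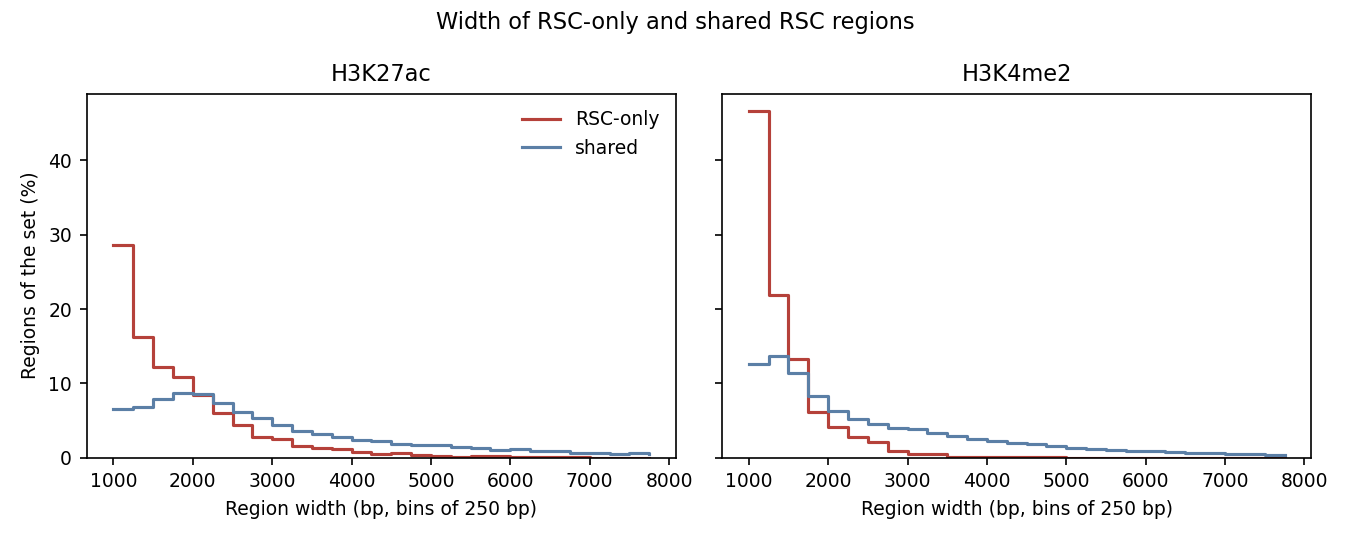
Width of RSC-only (red) and shared (blue) RSC regions in bins of equal size (horizontal axis, bp) as a percentage of each set (vertical axis), for H3K27ac on the left and H3K4me2 on the right; regions of 8000 bp or wider are not drawn. The narrowest bin holds 28.6% of RSC-only and 6.63% of shared H3K27ac regions, and 46.7% of RSC-only and 12.6% of shared H3K4me2 regions.

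Since width and overlap go together, the sets were also compared within bins of width. In each of the 4 bins and for both marks the enhancer share was higher in RSC-only than in shared regions. For H3K27ac it was 87.5% (85.7 to 89.1) against 73.4% (72.1 to 74.7) from 1000 to under 1500 bp, and 77.5% (72.7 to 81.6) against 46.3% (45.5 to 47.1) at 3000 bp or more. For H3K4me2 the gap was small in the narrowest bin, at 87.3% (85.7 to 88.7) against 83.7% (82.9 to 84.4). It was larger from 2000 to under 3000 bp, at 83.0% (78.2 to 87.0) against 57.5% (56.4 to 58.6).

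The RSC list of the other mark was not used to choose the regions and gives a separate reading of them. The ACC, LEC and MEC lists of the other mark are less separate. By the rule shared regions have the first mark in ACC, LEC or MEC, and within a subregion the marks often lie together. Differences in the other mark elsewhere, or in no subregion, are thus partly built in. RSC-only H3K27ac regions seldom carried H3K4me2. An RSC H3K4me2 region overlapped 1007 of them, or 31.5% (29.9 to 33.1), against 24040 or 70.3% (69.8 to 70.8) of shared H3K27ac regions and 67.0% of all RSC H3K27ac regions of this width. The difference was there in enhancer regions, at 30.6% (28.9 to 32.4) against 62.8% (62.1 to 63.5), and in excluded regions, at 36.4% (32.2 to 40.8) against 78.9% (78.3 to 79.6). The share of RSC-only H3K27ac regions with H3K4me2 varied little with width and lay between 29.5% and 32.9% in the 4 bins. Among shared regions the share with H3K4me2 was 54.5%, 62.8%, 68.2% and 79.5% from the narrowest to the widest bin.

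The H3K4me2 lists of the other subregions overlapped RSC-only H3K27ac regions less often than the RSC list did. An ACC H3K4me2 region overlapped 730 of them, or 22.8% (21.4 to 24.3), a LEC region 416 of 3200 (11.9 to 14.2%) and a MEC region 262, or 8.19% (7.29 to 9.19). At least 1 of the 3 did so at 902, or 28.2% (26.7 to 29.8), against 83.4% (83.0 to 83.8) of shared regions and 78.7% of all RSC H3K27ac regions of this width. In shared H3K27ac regions the order of RSC and ACC was the other way round, with 70.3% for the RSC list and 74.1% (73.7 to 74.6) for the longer ACC list.

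No H3K4me2 region of any subregion overlapped 1940 of the RSC-only H3K27ac regions, or 60.6% (58.9 to 62.3), against 13.3% (12.9 to 13.7) of shared ones. H3K4me2 was present in RSC and elsewhere at 649 of them, in RSC alone at 358 and elsewhere but not in RSC at 253. The 358 were 35.6% (32.7 to 38.6) of the RSC-only H3K27ac regions with H3K4me2 in RSC. Among shared H3K27ac regions with H3K4me2 in RSC, 4.75% (4.49 to 5.03) had it in RSC alone. Most RSC-only H3K27ac regions with H3K4me2 in RSC thus had H3K4me2 in another subregion too.

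**Figure D3:**
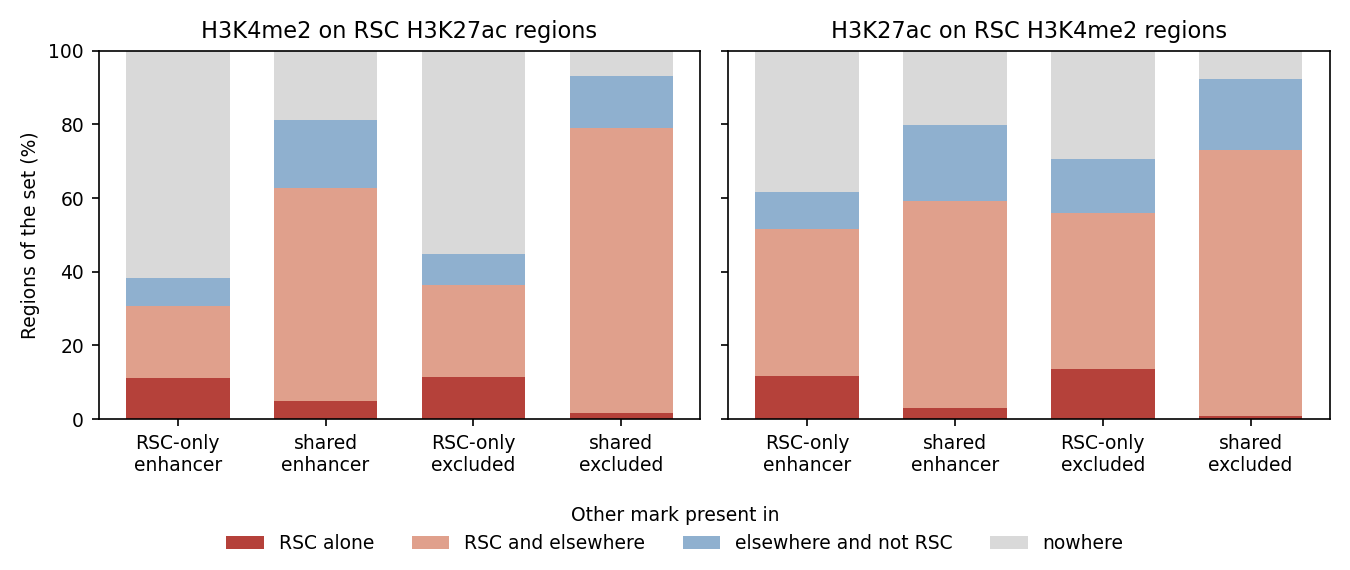
Where the other mark was present on RSC H3K27ac regions (left) and RSC H3K4me2 regions (right), as a percentage of each set (vertical axis), for RSC-only and shared regions in the enhancer list and excluded from it. The grey part, with the other mark in no subregion, is 61.6% of RSC-only and 18.8% of shared H3K27ac enhancer regions, and 38.2% of RSC-only and 20.1% of shared H3K4me2 enhancer regions.

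RSC-only H3K4me2 regions carried H3K27ac more often than the reverse, and here the comparison turned with width. An RSC H3K27ac region overlapped 1443 of them, or 52.2% (50.3 to 54.0), against 25003 or 65.1% (64.6 to 65.5) of shared H3K4me2 regions and 64.2% of all. Below 2000 bp the direction turned. From 1000 to under 1500 bp it was 43.8% (41.6 to 46.1) in RSC-only and 37.0% (36.1 to 37.9) in shared regions, and from 1500 to under 2000 bp 68.2% (64.2 to 72.0) against 59.2% (58.1 to 60.3). From 2000 to under 3000 bp the shares were 72.9% (67.4 to 77.8) and 72.8% (71.8 to 73.8), and at 3000 bp or more 80.4% (67.5 to 89.0) and 85.5% (84.9 to 86.1), with intervals that overlapped. RSC-only H3K4me2 regions were mostly narrow, with 1896 of the 2765 in the narrowest bin, and narrow regions carried H3K27ac less often in both sets.

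The excess in narrow regions was seen in both kinds of region, a split added after the pooled values were seen. From 1000 to under 1500 bp H3K27ac overlapped 43.5% (41.1 to 45.9) of RSC-only and 37.6% (36.5 to 38.6) of shared H3K4me2 enhancer regions. For excluded regions of that width it was 46.1% (39.9 to 52.4) against 34.0% (31.8 to 36.4). From 1500 to under 2000 bp enhancer regions had 67.3% (62.9 to 71.4) against 62.1% (60.9 to 63.4), whose intervals overlapped, and excluded regions had 74.0% (62.9 to 82.7), 54 of 73 regions, against 49.8% (47.5 to 52.1).

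**Figure D4:**
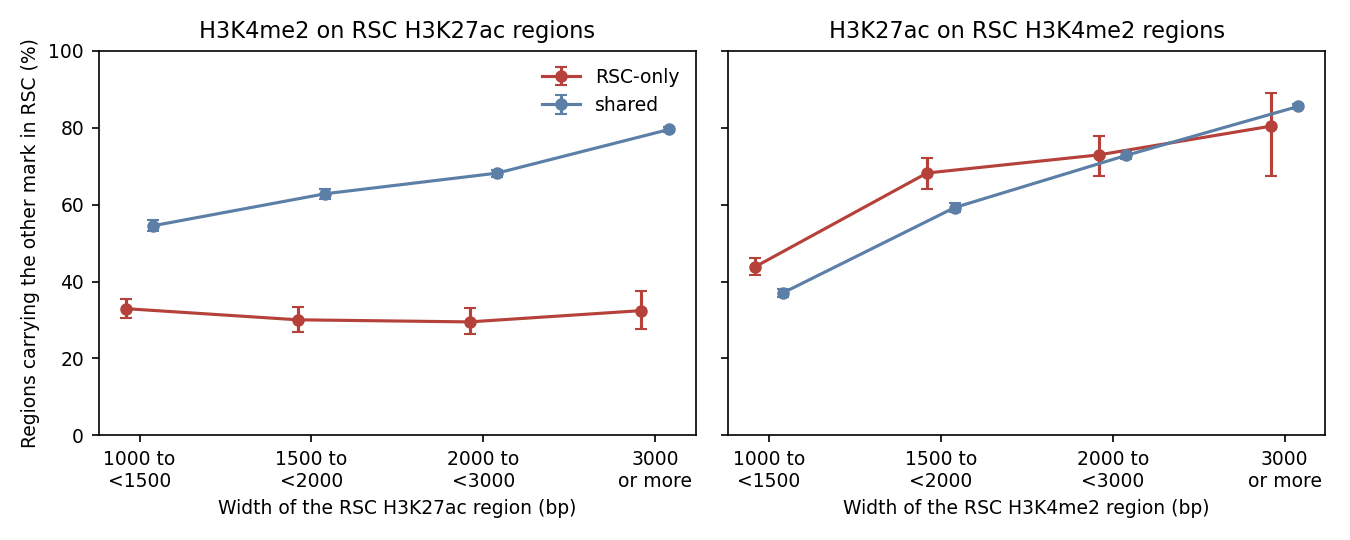
Percentage of RSC regions carrying the other mark in RSC (vertical axis) by width of the region (horizontal axis, bp), for H3K4me2 on H3K27ac regions (left) and H3K27ac on H3K4me2 regions (right); RSC-only regions are red, shared regions blue, and bars are Wilson 95% intervals. On the left the red points stay between 29.5% and 32.9% and below the blue ones in every bin, whereas on the right they lie above the blue ones below 2000 bp and level with them or below from there.

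For H3K27ac elsewhere the direction held at each width. The rule partly builds this in, since shared regions have H3K4me2 in ACC, LEC or MEC. An ACC, LEC or MEC H3K27ac region overlapped 1409 RSC-only H3K4me2 regions, or 51.0% (49.1 to 52.8), against 83.2% (82.8 to 83.6) of shared ones and 81.0% of all. In each of the 4 bins this overlap was less frequent among RSC-only than among shared regions. An ACC region overlapped 43.8% (42.0 to 45.7), a LEC region 22.8% (21.3 to 24.4) and a MEC region 497 of 2765 (16.6 to 19.4%). In all, 1111 RSC-only H3K4me2 regions, or 40.2% (38.4 to 42.0), lay on H3K27ac found in RSC and at least 1 other subregion. H3K27ac was in RSC alone at 332, elsewhere but not in RSC at 298, and nowhere at 1024 or 37.0% (35.3 to 38.9). Where RSC had both marks, H3K27ac covered a median of 100% of the bases of RSC-only H3K4me2 regions, against 93.0% of shared ones. H3K4me2 covered a median of 87.1% of the bases of RSC-only H3K27ac regions, against 90.8% of shared ones. These pooled medians mix the 2 kinds of region. In enhancer regions the median was 100% in both H3K4me2 sets, and for H3K27ac the direction turned, with 86.6% in RSC-only and 76.4% in shared regions. In excluded regions it was 100% against 77.0% for H3K4me2 and 91.3% against 100% for H3K27ac.

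RSC-only regions of the 2 marks met at a minority of sites. RSC-only regions of a mark met an RSC-only region of the other mark more often than shared regions of that mark did. Shared regions were far more numerous as partners, with 38422 against 2765 RSC-only for H3K4me2 and 34211 against 3200 for H3K27ac. A shared RSC H3K4me2 region overlapped 626 or 19.6% (18.2 to 21.0) of RSC-only H3K27ac regions, against 65.3% (64.8 to 65.8) of shared ones. A shared RSC H3K27ac region overlapped 1113 or 40.3% (38.4 to 42.1) of RSC-only H3K4me2 regions, against 61.6% (61.1 to 62.1) of shared ones. An RSC-only H3K4me2 region overlapped 254 RSC-only H3K27ac regions, or 7.94% (7.05 to 8.93), against 3.21% (3.03 to 3.40) of shared H3K27ac regions. From the other side, 255 RSC-only H3K4me2 regions, or 9.22% (8.20 to 10.4), lay on an RSC-only H3K27ac region, against 1.63% (1.51 to 1.76) of shared H3K4me2 regions. Of the 254 H3K27ac regions, 217 were enhancer regions and 37 were excluded. The widest 5 in the enhancer list were chr14:64393076-64399825 (6750 bp), chr1:76024151-76029925 (5775 bp), chr16:6781676-6786975 (5300 bp), chr2:162536526-162541025 (4500 bp) and chr12:85189551-85194025 (4475 bp). Each held 1 RSC H3K4me2 region and no ACC, LEC or MEC H3K4me2 region. RSC H3K4me2 covered 51.5%, 19.9%, 63.2%, 18.9% and 59.8% of their bases in this order. The nearest H3K27ac region of another subregion, in ACC each time, lay 4.60 kb from the first and 21.5 to 47.9 kb from the others.

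None of the 3 widest RSC-only H3K27ac enhancer regions was among them. The widest enhancer region, chr17:63101476-63111350, was 9875 bp wide and lay 20.7 kb from the nearest H3K27ac region of another subregion, and chr17:6160276-6169425, 9150 bp wide, lay 1.80 kb from one in ACC. Neither held an H3K4me2 region of any subregion. The third, chr13:36618976-36626950 with 7975 bp, held 1 H3K4me2 region in RSC and 1 in ACC, and RSC H3K4me2 covered 17.9% of it. Among excluded regions the widest were chr17:51918276-51925800 (7525 bp) and chr14:79027626-79034525 (6900 bp), each with 2 RSC H3K4me2 regions, which covered 45.8% and 41.7% of their bases.

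The widest RSC-only H3K4me2 enhancer region, chr1:56303626-56310950, was 7325 bp wide and covered in full by H3K27ac of RSC, and ACC also had an H3K27ac region there. The second, chr14:106117326-106122675 with 5350 bp, was the opposite case: ACC, LEC and MEC each had an H3K27ac region on it and RSC had none. The third, chr1:56979301-56984100 with 4800 bp, lay only 0.30 kb from an ACC H3K4me2 region and 0.025 kb from another RSC H3K4me2 region. It held 2 H3K27ac regions of RSC and 1 of ACC. The widest excluded H3K4me2 regions, chr15:68912826-68922900 (10075 bp) and chr4:151011601-151016575 (4975 bp), both carried H3K27ac in RSC and in ACC, and the first also in MEC.

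Along the genome, RSC-only regions were found on all 19 autosomes, in shares that varied less than 2 to 1. For H3K27ac the share of RSC regions that were RSC-only ran from 6.30% (5.37 to 7.37) on chromosome 7 and 6.46% (5.09 to 8.17) on chromosome 19 to 10.4% (9.13 to 11.8) on chromosome 3 and 10.5% (9.42 to 11.7) on chromosome 1. For H3K4me2 it ran from 5.56% (4.71 to 6.54) on chromosome 11 to 8.36% (7.31 to 9.54) on chromosome 3 and 8.39% (7.21 to 9.73) on chromosome 14. The 2 marks ranked the autosomes alike, with a Pearson r of 0.78 and a Spearman rho of 0.79 across 19 autosomes. These points share the RSC tissue and the same chromosomes, so the correlation is a description.

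Autosomes with a high enhancer share tended to have a higher RSC-only share, with r = 0.72 for H3K27ac and 0.61 for H3K4me2 across the 19 autosomes. Among H3K27ac enhancer regions alone the range was narrower, from 10.8% (9.11 to 12.7) on chromosome 7 to 14.8% (12.5 to 17.4) on chromosome 18. The intervals of these chromosomes overlapped, but that of chromosome 7 lay below that of chromosome 3, at 14.7% (12.9 to 16.7). Among H3K4me2 enhancer regions the range was wider than among all H3K4me2 regions. It ran from 7.47% (6.19 to 8.996) on chromosome 12 to 11.7% (10.2 to 13.4) on chromosome 3, with intervals that lay apart. The same rule applied to ACC, LEC and MEC ranked the autosomes in part alike, with r to RSC of 0.66, 0.62 and 0.57 for H3K27ac and 0.40, 0.57 and 0.34 for H3K4me2. The 4 rankings rest on the same overlaps and are not independent.

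**Figure D5:**
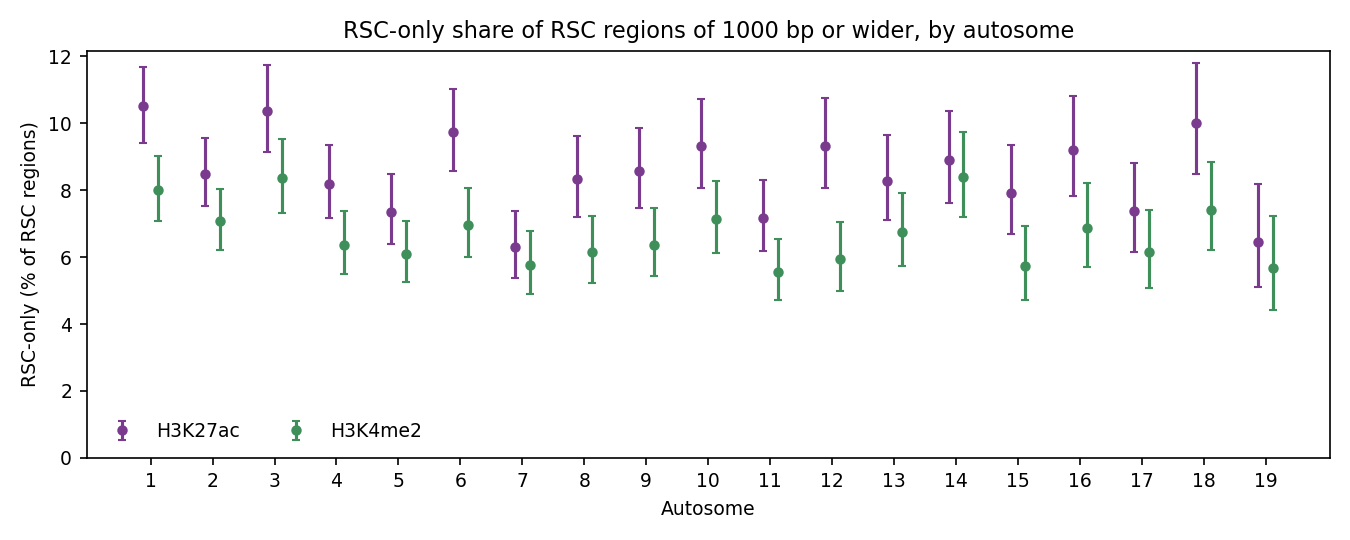
RSC-only regions as a percentage of all RSC regions of 1000 bp or wider (vertical axis) on each autosome (horizontal axis), for H3K27ac (purple) and H3K4me2 (green), with Wilson 95% intervals. H3K27ac shares lie between 6.30% and 10.5% and H3K4me2 shares between 5.56% and 8.39%, with chromosomes 1 and 3 high for both.

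Most RSC-only regions had a region of another subregion within 10 kb, a share with no baseline here. The nearest H3K27ac region of ACC, LEC or MEC was a median of 7.75 kb from the edge of an RSC-only H3K27ac region, and 56.8% (55.0 to 58.5) had one within 10 kb. For H3K4me2 the median was 7.50 kb and the share 58.4% (56.6 to 60.3). By list, an ACC region lay within 10 kb of 49.8% of RSC-only H3K27ac regions, a LEC region of 39.0% and a MEC region of 28.1%. Within RSC, the nearest other H3K27ac region of any kind was a median of 8.48 kb away for RSC-only and 7.05 kb for shared regions, and for H3K4me2 the medians were 10.9 and 8.78 kb. Another RSC region lay within 10 kb of 54.1% (52.4 to 55.8) of RSC-only and 59.4% (58.9 to 60.0) of shared H3K27ac regions. For H3K4me2 it was 47.8% (46.0 to 49.7) against 54.0% (53.5 to 54.5), so RSC-only regions lay somewhat farther from other RSC regions.

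RSC-only enhancer regions lay farther from excluded regions than shared enhancer regions did. The nearest excluded RSC region of the same mark was a median of 58.6 kb from RSC-only H3K27ac enhancer regions, against 33.9 kb from shared ones. The quartiles were 17.4 and 179.6 kb for RSC-only and 11.4 and 94.0 kb for shared enhancer regions. For H3K4me2 the medians were 50.8 kb against 35.7 kb. The excluded list was made by the authors and its rule is not known here, so these are distances to listed regions and not to gene starts.

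Most RSC-only enhancer regions had no other RSC-only enhancer region of the mark within 100 kb. RSC regions in general lay nearer. The nearest other RSC region of the mark was a median of 8.58 kb away for H3K27ac and 10.7 kb for H3K4me2. For shared enhancer regions these medians were 6.2 and 8.3 kb. Shared enhancer regions were not chained in the same way, so the counts have no baseline. When RSC-only enhancer regions were chained wherever the gap between neighbours was at most 100 kb, 1500 of 2727 for H3K27ac and 1579 of 2387 for H3K4me2 had no such neighbour. Chains of 5 or more numbered 26 for H3K27ac, with 173 regions, and 6 for H3K4me2, with 38. The 3 H3K27ac chains with the most regions were picked for that number and lie at sites already known from these lists. At chr2:169431926-169689125, 16 RSC-only enhancer regions covered 35.2 kb of 257.2 kb, and 11 shared regions stood among them. At chr17:62948051-63168925 there were 12, covering 33.2 kb of 220.9 kb, with only 2 shared regions. The full H3K27ac lists had 14 RSC regions there, 3 of ACC, 1 of LEC and 0 of MEC, and the widest RSC-only region was one of them. The span held 8 RSC, 7 ACC, 6 LEC and 4 MEC regions of H3K4me2. At chr1:177068551-177400475 there were 10 RSC-only enhancer regions and 10 shared regions.

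The H3K4me2 chains with the most regions were at other places. At chr6:101134051-101397550, 9 RSC-only enhancer regions covered 17.8 kb, and RSC had 27 H3K4me2 regions there, ACC 16, LEC 16 and MEC 3. H3K27ac regions in that span were as many in RSC and ACC, 19 each, with 18 in LEC and 4 in MEC. At chr5:19868401-20178500 there were 7 RSC-only regions among 13 RSC H3K4me2 regions, where ACC had 6, LEC 4 and MEC 2. That span held 19 H3K27ac regions of RSC, 22 of ACC, 8 of LEC and 16 of MEC. At chr12:26697201-26897500 there were 6 among 9, where ACC had 6, LEC 2 and MEC 0, and here H3K27ac had the same order, with 12 RSC, 8 ACC, 4 LEC and 0 MEC regions.

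With the same rule applied to each subregion in turn, RSC lay below ACC and LEC in how often the H3K27ac regions found in it alone carried H3K4me2. H3K4me2 of the same subregion overlapped 31.5% (29.9 to 33.1) of RSC-only H3K27ac regions, against 52.7% (51.4 to 54.0) of ACC-only, 50.5% (49.0 to 52.1) of LEC-only and 16.6% (14.4 to 19.1) of MEC-only regions. Over all H3K27ac regions of this width the RSC share was 67.0%, against 71.8% for ACC, 71.9% for LEC and 63.7% for MEC, a smaller range. In every bin of width RSC lay below ACC and LEC and above MEC, for example at 29.5% (26.2 to 33.0), against 53.5% (50.6 to 56.4) for ACC, 483 of 966 (46.9 to 53.1%) for LEC and 17.4% (13.4 to 22.3) for MEC, from 2000 to under 3000 bp. Regions are not replicates, so whether these differences exceed those between animals was not tested. The MEC H3K4me2 list rests on 1 library and is the shortest of the H3K4me2 lists.

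For H3K4me2 RSC lay close to ACC instead. H3K27ac of the same subregion overlapped 52.2% (50.3 to 54.0) of RSC-only H3K4me2 regions, 53.9% (52.6 to 55.2) of ACC-only, 43.2% (41.5 to 44.9) of LEC-only and 37.8% (29.8 to 46.5) of MEC-only ones, the last from 127 regions. Over all H3K4me2 regions of this width it was 64.2%, 69.1%, 67.6% and 69.0% for the same 4 subregions. By width RSC lay above LEC in each bin, for example at 72.9% (67.4 to 77.8) against 60.6% (55.7 to 65.2) from 2000 to under 3000 bp, where ACC had 65.7% (62.5 to 68.8). The enhancer share of the H3K27ac regions found in 1 subregion was 85.2% (83.9 to 86.4) in RSC, close to MEC at 86.0% (83.6 to 88.0) and above LEC at 77.4% (76.1 to 78.7) and ACC at 70.5% (69.3 to 71.7). For H3K4me2 it was 86.3% (85.0 to 87.6) in RSC, 80.6% (79.2 to 81.9) in LEC, 79.8% (78.7 to 80.8) in ACC and 56.7% (48.0 to 65.0) in MEC. The lists also differed in the enhancer share of their shared regions. For H3K27ac that was 53.9% for RSC, against 53.6% for ACC, 50.7% for LEC and 44.4% for MEC. For H3K4me2 it was 57.3% for RSC, against 58.4%, 56.7% and 23.8% for ACC, LEC and MEC. By these values the gap between the sets was widest in MEC for both marks. For H3K4me2 the MEC share rests on 72 of 127 regions, with a wide interval, and on a list from 1 library, so that rank is uncertain. By number, 8.55% of RSC H3K27ac regions were found in their subregion alone, against 13.1% for ACC, 9.83% for LEC and 4.69% for MEC. For H3K4me2 it was 6.71% for RSC, against 11.6% for ACC, 7.85% for LEC and 0.758% for MEC.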

How the data were processed

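The authors deposited BED lists of enriched regions for H3K27ac and H3K4me2 in 4 subregions, named as reproducible over libraries, although H3K4me2 in MEC has 1 library in the labels. Bowtie 1.1.1, bedtools 2.19.0 and the mm9 build are named in the submitters' processing notes. Which peak caller set the length of each list is not given in the labels. The list names carry a number that may be a threshold, whose meaning is not given either. The deposited values are region starts and ends and, where a list has a score column, the width of the region in bp (0 exceptions), so no enrichment, signal or depth was at hand. Of 17 lists 16 were used, because 1 repeated another byte for byte. Positions lay on a grid of 25 bp. Every enhancer region was also in its full list.

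Overlaps of 1 bp or more were computed with Python 3.11.15 and numpy 2.4.6 and intervals with scipy 1.17.1. The overlap step was tested on simulated lists and against bedtools 2.31.1, with 0 mismatches over 4463 RSC-only H3K27ac and 4376 RSC-only H3K4me2 regions of any width. The comparison sets, width bins of 1000, 1500, 2000 and 3000 bp upward, the 10 alternatives and the rule for named regions were set with earlier results of these data known. The rule named, per mark, the 3 widest RSC-only enhancer and 2 widest RSC-only excluded regions, the 5 widest H3K27ac enhancer regions RSC-only in both marks, and the 3 chains with the most regions. Regions on chromosome 18 were counted but not named. Coordinates are 1-based. Genes were annotated only in another build, GRCm38, so they were not named and gene context was not analysed here. The input libraries were not analysed here.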

Additional observations from a re-analysis of the deposited data

Results flagged for a closer look

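Chromosome X was outside the rule, and RSC-only regions were found there too. Of 1088 RSC H3K27ac regions of 1000 bp or wider on it, 116 or 10.7% (8.96 to 12.6) overlapped no H3K27ac region elsewhere, and of 1122 H3K4me2 regions 87 or 7.75% (6.33 to 9.47) overlapped no H3K4me2 region elsewhere. These regions enter no comparison of RSC-only with shared regions above, and the intervals include the shares of several autosomes. The labels do not give the sex of the animals.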

How the results depend on the processing

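For each mark 4 results were recomputed under 10 alternatives, which gave 80 values: the RSC-only share, and the RSC-only minus shared differences in enhancer share, in the share carrying the other mark in RSC and in median width. Of these, 23 moved by less than their interval, 52 kept their direction but were smaller or larger by more than that, and 5 turned. Adding the sex chromosomes left all 8 values within their interval.

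The RSC-only share of H3K27ac and H3K4me2 regions was 10.9% and 8.15% when up to 50% of a region could be covered elsewhere, and 8.24% and 6.47% when no region was allowed within 1000 bp. It was 11.05% and 9.65% with no width minimum and 4.12% and 1.55% with a minimum of 2000 bp. Without the ACC, LEC or MEC list in turn it was 22.1%, 12.5% and 10.7% for H3K27ac and 18.8%, 10.8% and 8.15% for H3K4me2. With the other lists cut to the widest regions, as many as the shortest list holds, it was 27.4% and 24.2%.

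The difference in enhancer share was 29.7 points for H3K27ac at 50% coverage. With the 2000 bp minimum it was 34.2 and 42.9 points for H3K27ac and H3K4me2, with lists at equal length 26.2 and 33.4, without LEC 26.1 and 27.6, without MEC 27.4 and 24.6, and for H3K4me2 without ACC 30.6. The difference in the other mark was -36.4 and -10.4 points at 50% coverage, -44.6 and -6.75 with the 2000 bp minimum, -31.0 and -16.1 without LEC, and -25.8 and -25.4 with lists at equal length. For H3K4me2 with no width minimum it was -17.4, and for H3K27ac without ACC -30.7 and without MEC -36.01. The difference in median width was -825 and -800 bp at 50% coverage, -1300 and -950 bp with no minimum, -875 and -1100 bp with the 2000 bp minimum, -975 bp for both marks without ACC, -975 and -825 bp without MEC, and -1425 and -1275 bp with lists at equal length.

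Against the enhancer lists of the other subregions, 48.1% and 43.4% of RSC regions were RSC-only. The enhancer difference turned to -70.9 and -75.6 points, the other mark to 3.85 and 7.13 points, and the H3K4me2 width to 1100 bp. The H3K27ac width kept its direction at -150 bp. The turn in enhancer share follows from the construction: those lists hold no excluded regions, so an excluded RSC region counts as shared only where it meets an enhancer region elsewhere. The cause of the other turns was not tested. Within bins of width below 2000 bp the H3K27ac share of H3K4me2 regions also turned, as given with that result.

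No paired analysis was possible because each subregion and mark has 1 list with no values per library. For the same reason no library was left out in turn. Depth behind the lists is unknown.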

Other observations

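Some regions found in the other 3 subregions were missing from the RSC lists. Of the ACC H3K27ac regions of 1000 bp or wider that overlapped both a LEC and a MEC region, 1491 of 13528 (10.5 to 11.6%) overlapped no RSC H3K27ac region. Their median width was 2850 bp, against 4425 bp for the 12037 that also overlapped an RSC region, and 31.9% against 36.3% were enhancer regions of ACC. RSC H3K4me2 was present at 77.7% (75.5 to 79.7) of them, against 85.1% (84.4 to 85.7), and ACC H3K4me2 at 83.1% (81.1 to 84.9), against 86.4% (85.8 to 87.0). For H3K4me2, 2185 such ACC regions or 12.6% (12.1 to 13.1) overlapped no RSC region, with a median of 2875 bp and 41.2% enhancer regions, against 3875 bp and 34.0% for the 15107 that also overlapped one. RSC H3K27ac was present at 62.1% (60.1 to 64.1) of these, against 74.8% (74.1 to 75.5), and ACC H3K27ac at 72.3% (70.4 to 74.1), against 79.5% (78.9 to 80.2).

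Regions too narrow for the rule were RSC-only more often. Below 1000 bp, 1263 of 2988 RSC H3K27ac regions or 42.3% (40.5 to 44.0), and 1611 of 4148 RSC H3K4me2 regions or 38.8% (37.4 to 40.3), overlapped nothing elsewhere.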
